A study of Mus musculus with 6 samples.

Results

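Rybp occupancy in mouse embryonic stem (ES) cells that carry a constitutive knockout of Eed (Eed-KO) was compared with that in wild-type (WT) ES cells. The comparison uses 4 of the 6 arrays of the study, that is 1 WT and 1 Eed-KO array of each of 2 promoter array designs, called array 1 and array 2, which carry different probes. Each array was hybridised with Cy5-labelled DNA precipitated with an anti-Rybp antibody (IP) and Cy3-labelled input DNA of the same cells. Both genotypes were of the same cell type and were fixed in the same way, and the labels allow growth on a fibroblast feeder layer or on gelatin and do not say which culture had which. The strain, the number of clones and the passage are not given in the sources used here. Every gene was therefore read on 1 array per genotype, so that values, counts and the scatter over probes are given and no p-value.

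Rybp belongs to the variant forms of Polycomb repressive complex 1 (PRC1), which place ubiquitin on histone H2A. Eed belongs to the core of Polycomb repressive complex 2 (PRC2). It binds trimethylated lysine 27 of histone H3 and is needed for the methylation of that residue, to which the Cbx proteins of canonical PRC1 bind. In ES cells both complexes are known for covering the CpG-rich promoters of developmental regulators that are silent until differentiation. The question of the comparison was how Rybp lies on promoters when Eed is absent.

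The level of a probe was log2 of IP over input signal, centred on the median of its array, and the level of a gene was the mean over its probes. The difference is Eed-KO minus WT on this log2 scale. It equals an IP part minus an input part, which are the Eed-KO minus WT differences of the centred log2 signal in the red and in the green channel. Of 16910 genes with a symbol, 16580 had at least 5 probes, with a median of 27 probes per gene. A gene was called higher or lower at a difference of at least 0.25 in size, which is 1.19-fold. Errors are standard errors (SE) or standard deviations (SD) over the probes of the gene, which describe the scatter of probes on an array and leave out the variation between cultures.

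The probes below are shown because they carry the largest difference, in the direction of the gene, at 3 high and 3 low genes. These are the 3 highest and 3 lowest among genes with at least 10 probes, 75% or more of which moved the same way. The probes are printed as deposited, 5′ to 3′, with CpG dinucleotides in capitals. The strand and the genome build are not given in the sources used here.
Msx1: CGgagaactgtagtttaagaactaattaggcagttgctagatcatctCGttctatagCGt
1700041G16Rik: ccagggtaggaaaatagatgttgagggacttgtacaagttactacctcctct
Cfap410: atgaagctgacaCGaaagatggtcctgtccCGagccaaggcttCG
Rpl36a: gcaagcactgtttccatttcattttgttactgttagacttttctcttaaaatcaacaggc
Zfp619: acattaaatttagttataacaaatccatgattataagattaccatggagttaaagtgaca
Klhl9: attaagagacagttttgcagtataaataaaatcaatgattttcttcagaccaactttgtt

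The Msx1 probe lies upstream of the gene at chr5:38114600-38114659, at a distance of -1795 bp from the annotated start, and read 1.92 in WT and 3.21 in Eed-KO. The 1700041G16Rik probe, annotated downstream at chr8:24276012-24276063, read -0.01 and 0.80. The Cfap410 probe, inside the gene at chr10:77381834-77381878, read -3.21 and 0.25, with an IP part of 6.63 and an input part of 3.18. Both channels of this spot were brighter in Eed-KO, and the median over the 17 probes of Cfap410 was 0.16 against a mean of 0.43 ± 0.20 (SE). At the lower end, the Rpl36a probe at chrX:129933654-129933713, inside the gene, read 0.81 in WT and -0.82 in Eed-KO. The Zfp619 probe, annotated to the promoter at chr7:39289440-39289499, read 0.31 and -1.43, and both channels were dimmer in Eed-KO, with an IP part of -4.00 and an input part of -2.25. The Klhl9 probe, inside the gene at chr4:88192880-88192939, read 1.73 and 0.45, a difference that lay in the IP channel (-1.25) and not in the input (0.03). These 3 probes and that of 1700041G16Rik hold no CpG, and the Msx1 and Cfap410 probes hold 3 each.

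The 4 arrays held 237195 and 237185 non-control probes on the 2 designs, of which 474124 were kept. Input signal was well above background at 99.9% or more of probes on each array, and no probe was saturated. Probe log ratios had an SD of 0.448 and 0.467 on the Eed-KO arrays, wider than the 0.412 and 0.416 of WT. Setting the arrays of a design to the same median absolute deviation narrows this gap in SD without closing it. Medians and call counts under that scaling are given below beside the lists whose values it moved most.

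Over all genes the profiles were close, and most of the differences were small. The median gene differed by -0.01, and the middle 95% of genes lay between -0.22 and 0.18. In all, 124 genes were called higher in Eed-KO (0.748% of those tested) and 239 lower (1.44%), with 44.3% of genes above 0. At a difference of 0.5, or 1.41-fold, 2 genes were higher and 6 lower. The balance of the calls changed with background handling. With normexp background correction, 73 genes were higher and 31 lower, and with the arrays scaled to the same spread 78 were higher and 249 lower. At the edges of the rule, Id4 lay just inside at 0.2505 and Prrxl1 just outside at 0.2498, while Olfr190 lay just inside at -0.25 and Smap1 just outside at -0.2497. The genes called higher had a median level of 0.18 in WT and 0.45 in Eed-KO, and those called lower 0.15 and -0.15.

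**Figure D1:**
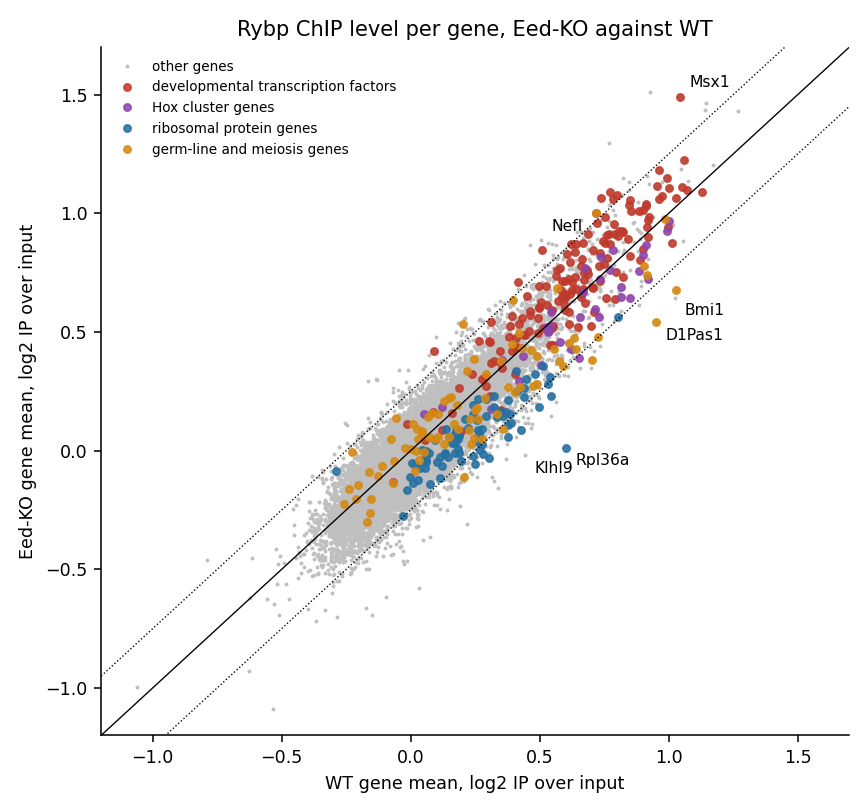
Mean log2 IP over input per gene in WT (x axis) and Eed-KO (y axis), 1 point per gene with at least 5 probes. The solid line marks equal levels and the dotted lines a difference of 0.25. Most developmental transcription factors (red) lie above the solid line, and all ribosomal protein genes (blue) but 1 lie below it.

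Among genes with at least 10 probes of which 75% or more moved the same way, Msx1, a homeobox factor of craniofacial and limb development, had the highest difference. Its level was 1.05 ± 0.52 in WT (SD, 41 probes) and 1.49 ± 0.80 in Eed-KO, a difference of 0.45 ± 0.07 (SE), with 35 of 41 probes above WT. The excess ran along most of the tiled stretch and lay in the IP channel, with an IP part of 0.55 and an input part of 0.10. Cntnap1, which encodes a neuronal adhesion protein of the paranodal junction, was at 0.58 and 0.95, and Arl10, an Arf-like GTPase gene, at 0.18 and 0.54, with all 11 probes above WT. The uncharacterised transcript 1700041G16Rik was at -0.13 and 0.30, and the B430319F04Rik-Ampd3 pair at -0.04 and 0.34.

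The neurofilament light chain gene Nefl was at 0.51 and 0.89, with 42 of 44 probes above WT, and near its start the level was 1.12 and 1.89. Lgi3, a secreted neuronal protein gene, was at 0.10 and 0.48. Both lie on chromosome 14 in surroundings (2 Mb to each side) where both signals were higher in Eed-KO. There the median input part was 0.69 and 0.62 and the median IP part 0.77 and 0.73, while the median difference was 0.05 and 0.07. Pcsk1n, a proprotein convertase inhibitor gene on chromosome X, was at 0.20 and 0.56, with surroundings at an input part of 0.29, and its neighbour Eras, a ras-like gene of ES cells, was at 0.21 and 0.56 with surroundings also at 0.29. At the genes themselves the IP and input parts were 1.09 and 0.71 for Nefl and 0.93 and 0.55 for Lgi3. For Mrgprb5, a Mas-related G protein-coupled receptor gene read at -0.25 and 0.12, the IP part was 1.11 and the input part 0.74, while the median input part around it was 0.12. The part of the input shift in these differences was not tested. Among all genes, 554 lay in surroundings with a shifted input, and 113 higher and 234 lower calls remained among the other 16026 genes.

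**Figure D2:**
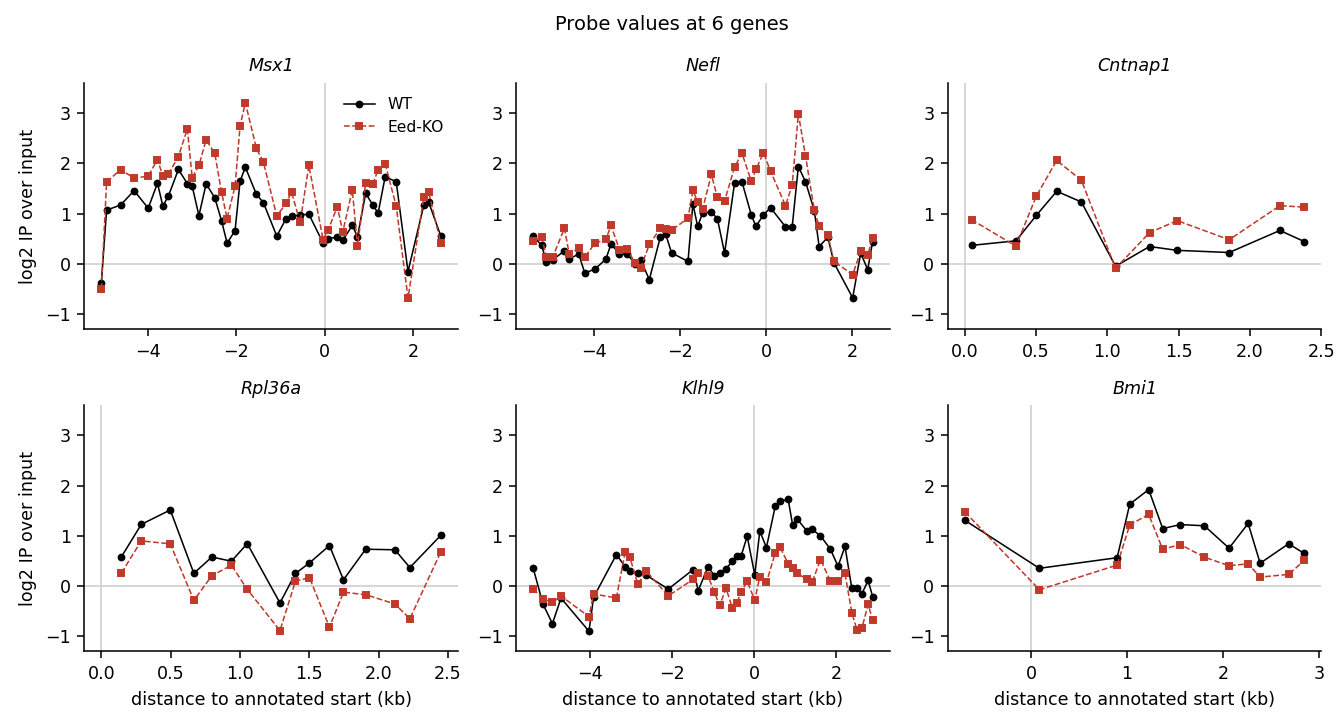
Log2 IP over input of each probe in WT (black circles) and Eed-KO (red squares) against the distance from the annotated start, for 3 genes higher and 3 genes lower in Eed-KO. The Eed-KO values run above WT along most of Msx1, Nefl and Cntnap1, and below WT along Rpl36a, over the start and body of Klhl9 and in the body of Bmi1.

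At the lower end stood Rpl36a, a ribosomal protein gene on chromosome X, at 0.60 ± 0.44 in WT (SD, 16 probes) and 0.01 ± 0.54 in Eed-KO. Its difference of -0.59 ± 0.10 (SE) was the same in sign at all 16 probes. Klhl9, which encodes a substrate adaptor of the Cul3 ubiquitin ligase, differed by -0.46 ± 0.07, and near its start it went from 0.84 to 0.06. Trim68, a RING-type ubiquitin ligase gene, was at 0.54 and 0.14, and near its start at 0.95 and 0.39. Kif24, a kinesin gene, was at 0.32 and -0.11, with all 15 probes below WT. Zfp619, Cox7b (a cytochrome c oxidase subunit gene) and Scml2 (a germ-line Polycomb gene) differed by -0.53, -0.44 and -0.43. The olfactory receptor genes Olfr424 and Olfr310 differed by -0.45 and -0.44, and at Olfr424 both channels were dimmer in Eed-KO, with an IP part of -1.59 and an input part of -1.13. At Olfr310 most of the difference lay in the input channel, with an IP part of -0.065 and an input part of 0.374. Among all genes called, 11 of the 124 higher and 6 of the 239 lower ones had both parts past 0.5 in size with the same sign. Of all 16580 genes tested, 241 did.

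Developmental transcription factors, the classical Polycomb targets, kept their high Rybp levels without Eed, and most read slightly above WT. Of 156 factors, 119 lay above 0, and the median difference was 0.077 against -0.013 for all genes. The median level was 0.63 in WT and 0.70 in Eed-KO. By the 0.25 rule 9 factors were higher and none lower, against backgrounds of 0.748% and 1.44%. Besides Msx1 they included Irx1 (0.51 in WT and 0.84 in Eed-KO), Nkx2-6 (0.09 and 0.42), Ebf2 (0.77 and 1.09), Olig1 (0.42 and 0.71), Lhx8 (0.72 and 1.00), Nkx3-2 (0.80 and 1.08) and Foxb1 (0.79 and 1.06). Ebf2, Olig1 and Lhx8 act in neural development, Nkx3-2 in the axial skeleton and Nkx2-6 in the pharyngeal and cardiac region. The lowest of the list was Sox11, a neural progenitor factor, at 0.35 and 0.17. The size of the list's shift depended on the spread of the arrays. With the arrays scaled to the same spread the median was 0.023 and 92 of 156 factors lay above 0. Then 4 factors were called higher, beside 78 of all 16580 genes. After removing the trend on probe GC content too the median was 0.017 with 91 factors above 0.

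Part of the range of levels at which these factors lie showed a like shift in all genes, which include the factors. All genes showed a trend with the level averaged over both genotypes. Their median difference was -0.079 below a level of -0.25, 0.017 between 0.25 and 0.5, 0.101 between 0.75 and 1 and 0.158 at 1 or more. Developmental factors between 0.75 and 1 had a median of 0.119, and those between 0.5 and 0.75 one of 0.061 against 0.054 for all genes there. Between 0.25 and 0.5 they stood further off, at 0.050, and at 1 or more they stood below all genes, at 0.102. The factors made up 60 of the 407 genes between 0.5 and 0.75 and 45 of the 132 between 0.75 and 1. At 1 or more they were 12 of 25 genes, so at the upper levels all genes are not a separate background. With the arrays scaled to the same spread, the trend over all genes ran from -0.052 to 0.080.

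Hox genes, the clustered homeobox regulators of the body axis, had lower gene means in Eed-KO at levels where most other genes had higher ones. Of 33 Hox genes, 7 lay above 0, and the median difference was -0.046, with median levels of 0.67 in WT and 0.58 in Eed-KO. Between levels of 0.5 and 0.75, 2 of 16 Hox genes lay above 0, whereas 268 of all 407 genes in this range did. Between 0.75 and 1 the counts were 2 of 10 Hox genes and 98 of 132 genes. By the 0.25 rule, 1 Hox gene was lower, beside 1.44% of all genes. With the arrays scaled to the same spread 3 were lower, beside 249 of all 16580 genes. The gene called lower without scaling was Hoxb3, at 0.65 ± 0.48 in WT (SD, 41 probes) and 0.39 ± 0.52 in Eed-KO. Its difference was -0.26 ± 0.05 (SE) with 5 of 41 probes above WT. Both channels contributed to it, with an IP part of -0.113 and an input part of 0.155.

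The HoxA, HoxB and HoxC clusters had members on either side of 0, and every measured HoxD gene lay below it. Hoxa2 was at 0.85 and 0.64, Hoxa5 at 0.92 and 0.72, Hoxc10 at 0.62 and 0.43 and Hoxc9 at 0.73 and 0.56. Hoxd10 and Hoxd13, highly occupied in WT, hardly differed, at 1.00 and 0.97 and at 0.99 and 0.93. This did not hold for all Hox genes of high level. The 10 between levels of 0.75 and 1 had a median difference of -0.055. With the arrays scaled to the same spread, the 11 in that range had a median of -0.125. Hoxc13 was highest at 0.05 and 0.15, and its sign turned to -0.08 within 1 kb of the start and to -0.26 in its best-bound run of 6 probes. The Hox values depended on where they were read. Within 1 kb of the start their median was -0.022 with 13 of 33 above 0. All genes had a median of -0.047 there, with 5572 of 14912 above 0. Over all probes of the Hox genes the median was -0.101 with the arrays scaled to the same spread and -0.117 after removing the GC trend too. In the run of 6 neighbouring probes with the highest mean over both genotypes it turned to 0.069, with 26 of 33 genes above 0. Neighbouring Hox genes share tiled stretches of the same clusters and are not independent of each other.

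Signalling and neuronal genes had smaller medians than the developmental factors, and extra-embryonic genes a median of like size. Of 104 genes of morphogen and signalling pathways 64 lay above 0, with a median of 0.033. The only call was Fgf9, a fibroblast growth factor, at 0.78 and 1.05, beside 0.748% of all genes called higher. Fgf18 of the same family was lowest at 0.53 and 0.33, yet within 1 kb of its start it was at 0.55 and 0.59. Of 192 neuronal channel and receptor genes 134 lay above 0, with a median of 0.033. The potassium channel genes Kcnj8 (0.55 and 0.87), Kcnj5 (0.27 and 0.56) and Kcnk13 (0.55 and 0.83) were called higher, beside the same 0.748% of all genes. Glra2, a glycine receptor gene, was lowest at -0.07 and -0.32. Of 35 trophoblast, endoderm and 2-cell genes 28 lay above 0, with a median of 0.088 and no gene called. Esx1, an X-linked placental homeobox gene, was at 0.74 and 0.97, Tfap2a at 0.85 and 1.04, and Cdx2, the trophectoderm regulator, at 0.52 and 0.69. With the arrays scaled to the same spread these 3 medians were 0.011, 0.022 and 0.045, the call of Fgf9 was lost and 1 of the 3 neuronal calls was left.

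Ribosomal protein genes gave the most uniform decrease among the 19 lists. Of 82 genes, 1 lay above 0, compared with 44.3% of all genes. The median difference was -0.157, with median levels of 0.24 in WT and 0.06 in Eed-KO. By the 0.25 rule 14 were lower and none higher, against a background of 1.44% lower. After Rpl36a, the lowest were Rps4x (0.43 in WT and 0.09 in Eed-KO), Rpl7l1 (0.30 and -0.03), Fau (0.38 and 0.06), Rpl37a (0.55 and 0.23) and Rps18 (0.50 and 0.18). The exception above 0 was Rpl3l, a paralogue of Rpl3 known from striated muscle, at -0.29 and -0.09. The decrease lay in the IP channel, with a median IP part of -0.170 and an input part of -0.004. Over the alternatives run, the median of the list stayed between -0.125 and -0.235.

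In these genes the decrease began shortly before the start and was larger along the gene body. The division into upstream, start and body was chosen after the profile by distance had been seen, over all 19 lists, and is a description. In the body, from 500 to 4000 bp behind the start, 81 genes with at least 3 such probes had a median level of 0.46 in WT and 0.18 in Eed-KO, and 1 of them, Rpl3l, read above WT. There 46 differed by -0.25 or less, and none by 0.25 or more, against 5.9% and 4.07% of all genes with a body value. The median difference was -0.270, the IP part -0.294 and the input part -0.012, and all genes had a median of -0.008 in the same stretch. Around the start, 72 of the genes had a median of -0.186, with an IP part of -0.121, an input part of 0.055 and 5 genes above 0, beside -0.054 for all genes. Between 1000 and 500 bp before the start the levels were 0.10 in WT and -0.09 in Eed-KO. In the whole upstream stretch the median was -0.041, and these genes lay below the array median in both genotypes, at -0.17 and -0.20. Probe GC content in these bodies was 40.3%, close to the 40.8% of all genes, and with the arrays scaled and the GC trend removed the median was -0.312.

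The body values of single ribosomal protein genes ranged from Rpl36a, at 0.49 in WT and -0.14 in Eed-KO, to Rpl10a, at 0.46 and 0.42, with Rpl3l alone in the other direction at -0.28 and -0.04. Rpl22l1 went from 0.61 to 0.07, Rplp1 from 0.66 to 0.12 and Rps3 from 0.63 to 0.15. Genes with the highest WT bodies stayed above the array median, with Rpl3 at 1.00 and 0.67, Rps23 at 0.95 and 0.55 and Rps12 at 0.86 and 0.54. Their differences of -0.330, -0.397 and -0.321 were larger in size than the list's body median of -0.270. At Rps27 both channels were dimmer, with an IP part of -1.02 and an input part of -0.54, and at Rplp0 both were brighter, at 0.32 and 0.58.

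**Figure D3:**
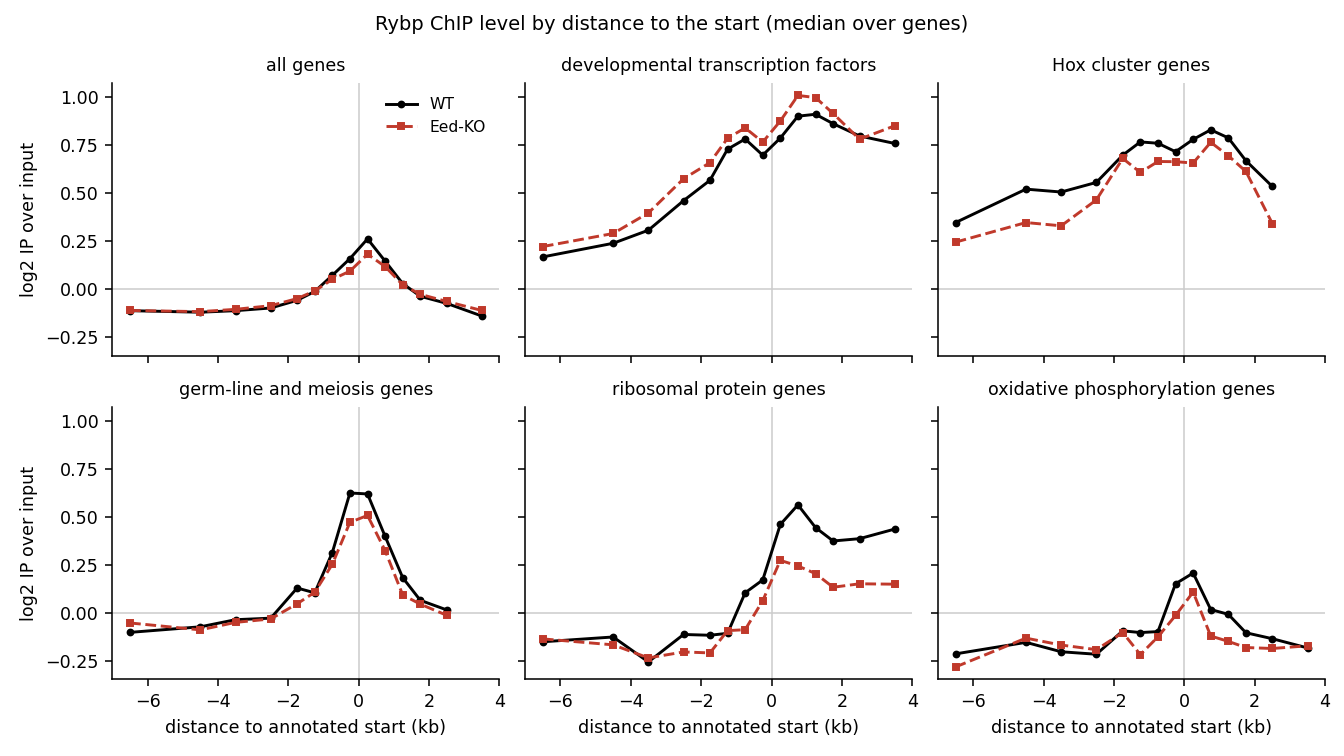
Median log2 IP over input in WT (black) and Eed-KO (red) in bins of distance from the annotated start, for all genes and 5 lists. At ribosomal protein genes the lines are furthest apart behind the start, with 0.56 in WT and 0.24 in Eed-KO between 500 and 1000 bp, and are already apart in the last 1000 bp before it. Over all genes the gap is widest around the start, at 0.26 and 0.18 between 0 and 500 bp.

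In their gene means, other housekeeping lists and the replication-dependent histone genes shifted the same way by less. Of 87 oxidative phosphorylation genes 23 lay above 0, with a median of -0.045, and 3 genes, Cox7b, Cox7c and Ndufaf4, were called lower, beside 1.44% of all genes. In their bodies the median was -0.141, with levels of -0.07 and -0.18 that lie below the array median. Of 125 proteasome, splicing and translation genes 35 lay above 0, with a median of -0.057. Eif4a2, an RNA helicase gene of translation initiation, was at 0.55 and 0.24, and Eif2s2 was at 0.28 and -0.05 with an SE of 0.21. Of 47 replication-dependent histone genes 13 lay above 0, with a median of -0.098, and 5 were called lower, beside 1.44% of all genes: H4c12, H2bc12, H3c2, H2ac6 and H3c3. H4c12 had the widest error of these, at -0.41 ± 0.27 (SE), and H3c2 was at 0.45 and 0.12. Within 1 kb of the start, 31 histone genes had a median of -0.223 and 14 were lower, beside 7.47% of all genes. That was not less than in the 75 ribosomal protein genes read there, with a median of -0.211 and 23 lower.

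Germ-line and meiosis genes, many of which variant PRC1 occupies in ES cells, had calls in both directions. Of 83 genes 35 lay above 0, with a median of -0.048, and 5 were lower and 2 higher, beside 1.44% and 0.748% of all genes. With the arrays scaled to the same spread 8 were lower and 1 higher, beside 249 and 78 of all 16580 genes. D1Pas1, a testis-expressed DEAD-box helicase gene, was at 0.95 ± 1.06 in WT (SD, 31 probes) and 0.54 ± 0.76 in Eed-KO, and within 1 kb of its start at 2.01 and 1.23. Msh4, a meiotic mismatch-repair homologue, was at 1.03 and 0.68, and Boll, a regulator of meiotic translation, at 0.70 and 0.38. Zpbp, a sperm protein gene, was at 0.20 and -0.11, and Tdrd12, of the piRNA pathway, at 0.36 and 0.09. The higher ones were Lhx8, also counted among the transcription factors, and Dnd1, an RNA-binding protein of primordial germ cells, at 0.20 and 0.53. At Dnd1 most of the difference lay in the input channel, with an IP part of 0.081 and an input part of -0.246. Of 80 genes with at least 5 probes within 1 kb of the start, 18 were lower and 5 higher there, against backgrounds of 7.47% and 2.44%. The near-start median was -0.066 with 27 of 80 above 0, beside -0.047 for all genes with 5572 of 14912 above 0. Around the starts the IP part was -0.022 and the input part 0.066. Between levels of 0.5 and 0.75, 2 of 8 germ-line genes lay above 0, beside 43 of 60 developmental factors and 268 of 407 genes.

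Genes for Polycomb proteins themselves read mostly lower. Of 53 genes 16 lay above 0, compared with 44.3% of all genes, and the median was -0.057. The median IP part was -0.031 and the median input part 0.025. Around the start the median of the list was -0.134, with an IP part of -0.036 and an input part of 0.142. All genes had a median of -0.054 and an input part of 0.064 there. Bmi1, which encodes the Pcgf4 subunit of PRC1, was at 1.02 ± 0.47 in WT (SD, 13 probes) and 0.64 ± 0.48 in Eed-KO, a difference of -0.38 ± 0.07 (SE) with 1 of 13 probes above WT. It lay in the IP channel, with an IP part of -0.37 and an input part of 0.01. The histone-methylation reader gene Mtf2 was at 0.38 and 0.08, Yaf2, the paralogue of Rybp, at 0.44 and 0.14, and Scml2 at 0.05 and -0.38. Suz12, a core PRC2 subunit gene, missed the rule at 0.08 and -0.15. Rybp was at 0.33 ± 0.33 (SD over 28 probes) and 0.18 ± 0.40, with 8 of 28 probes above WT, and Eed at 0.04 ± 0.45 (SD over 33 probes) and -0.11 ± 0.46. Neither reached 0.25. At Eed 1 probe was far brighter in both channels of Eed-KO, with an IP part of 4.70 and an input part of 5.22, so the mean parts of this gene are not read here. A promoter probe outside the deleted part does not test the knockout. Cbx2, a chromodomain subunit gene of canonical PRC1, was highest at 0.21 and 0.40.

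Pluripotency and imprinted genes were mixed. Of 44 pluripotency genes 17 lay above 0, with a median of -0.049. Pou5f1, which encodes Oct4, was lowest at 0.26 and 0.06, Klf4 was at 0.33 and 0.22, while Sox2 was at 0.38 and 0.51 and Otx2 at 0.56 and 0.74. The only call was Eras, beside 0.748% of all genes called higher, and Eras lies in the input-shifted stretch of chromosome X described above. Of 51 imprinted genes 21 lay above 0, with a median of -0.036. Mkrn3, in the imprinted cluster of the Prader-Willi region, was lower at 0.23 and -0.09, and within 1 kb of its start at 0.86 and 0.29. Its IP part was -0.084 and its input part 0.242, so most of the gene mean difference lay in the input channel. Kcnk9 was highest at 0.47 and 0.70, and Gnas, with several promoters, was at 0.47 and 0.64, with a difference of 1.28 in its best-bound run of 6 probes. That run does not stand for the whole locus. Of 78 Gnas probes 49 lay above WT and 29 below, and within 1 kb of a start Gnas was at 0.83 and 0.86.

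Clustered protocadherin genes, which encode neuronal cell-surface identity proteins and lie side by side on chromosome 18, gave the highest median of the 19 lists. Of 54 genes 48 lay above 0, with a median of 0.172, and 14 were higher and 1 lower, beside 0.748% and 1.44% of all genes. With the arrays scaled to the same spread 4 were higher and 2 lower, beside 78 and 249 of all 16580 genes. Pcdha2 was at 0.93 and 1.51, with all 9 probes above WT, yet its IP part was -0.03 and its input part -0.61, so that the difference lay in the input channel. With normexp background correction it was 0.21. Pcdha5 was at 0.77 and 1.29 and Pcdhga11 at 1.15 and 1.46, and Pcdhb6 was lower at 0.19 and -0.23. At Pcdhb6 too most of the difference lay in the input channel, with an IP part of -0.080 and an input part of 0.350. Over the list the IP part had a median of 0.086 and the input part of 0.002, and the median was 0.120 with the arrays scaled to the same spread. These genes share 1 array and 1 tiled region. Their share of the 18 higher calls on chromosome 18 was 14.

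Other families were read for comparison, and the largest of them, the olfactory receptor genes, lay below the array median in both genotypes. Of 834 olfactory receptor genes 245 lay above 0, with a median of -0.050 and levels of -0.19 and -0.24, and 24 were lower and 2 higher, beside 1.44% and 0.748% of all genes, on probes of low GC content (35.1% upstream of their starts). With the arrays scaled to the same spread 14 were lower and 3 higher, beside 249 and 78 of all 16580 genes. With the GC trend removed too the median of the olfactory receptor genes was -0.013. Of 253 Zfp genes 97 lay above 0, with 6 lower and 1 higher, beside 1.44% and 0.748% of all genes. Zfp623 among the lower ones was at 0.89 and 0.62. Of 76 keratin and keratin-associated genes 33 lay above 0, with 1 call each way, beside the same shares of all genes. Among 66 terminal differentiation genes, 33 lay above 0 and none was called. Of 39 fibroblast marker genes, listed because feeder cells may have been present, 19 lay above 0, with a median of -0.006 and none called. Promoter occupancy does not measure expression, so neither these nor the pluripotency genes identify the cells.

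**Figure D4:**
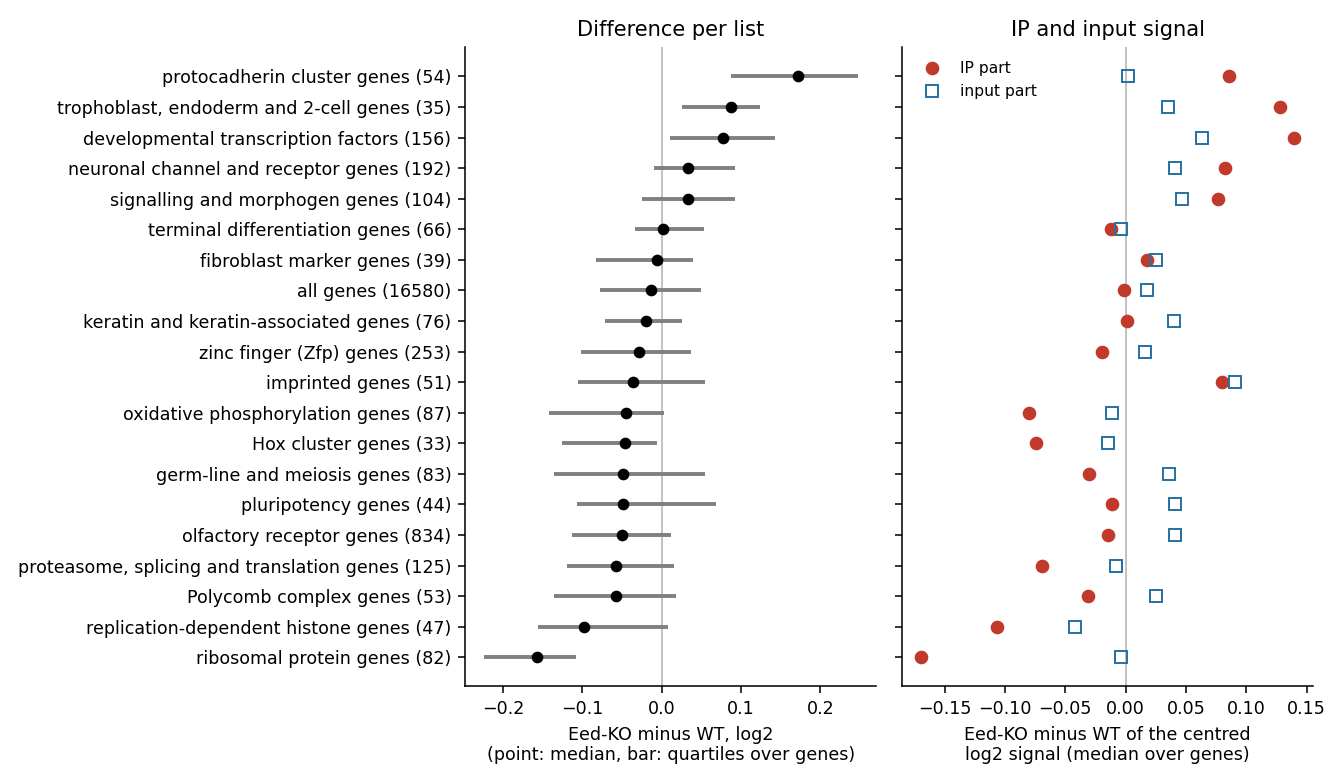
Left, median (point) and quartiles (bar) over genes of the Eed-KO minus WT difference for 19 gene lists and all genes, with the number of genes in brackets. Right, the medians of the IP part (red circles) and the input part (blue squares). Ribosomal protein genes lie lowest, with an IP part of -0.170 and an input part of -0.004, and protocadherin and developmental genes lie highest.

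Near annotated starts as a whole the difference was lower, and it moved with the CpG and GC content of the probe, mostly in the input channel. Of 14912 genes with at least 5 probes within 1 kb of the start, 364 were higher (2.44%) and 1114 lower (7.47%), with a median of -0.047 and median levels of 0.17 in WT and 0.12 in Eed-KO. Probes without a CpG differed by 0.007, those with 4 CpGs by -0.160 and those with 8 or more by -0.303. GC content rose along with the CpG count, from 38.6% to 77.8%, and probes of at least 70% GC differed by -0.272 with an input part of 0.308. In the probes with 8 or more CpGs the IP part was -0.010 and the input part 0.313, so that the IP signal of CpG-dense probes was alike in both genotypes and their input signal was higher in Eed-KO. Around the start all genes had a median input part of 0.064, and the lists differed in it, from -0.017 for protocadherin and 0.003 for histone genes to 0.150 for developmental factors and 0.156 for imprinted genes. Its part in the near-start counts was not tested. For the ribosomal protein gene bodies the input part stands beside the values above. Over the developmental factors the median IP part was 0.140 and the median input part 0.063.

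**Figure D5:**
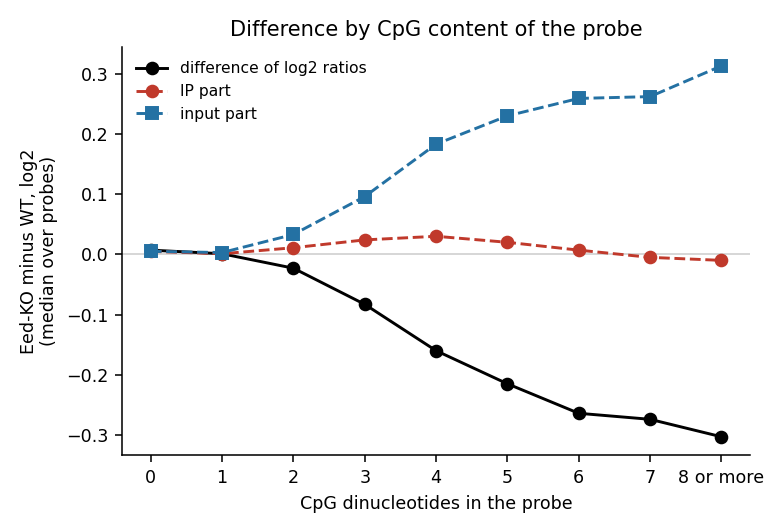
Median over probes of the Eed-KO minus WT difference (black), its IP part (red) and its input part (blue), against the number of CpG dinucleotides in the probe. The difference falls from 0.007 to -0.303 while the IP part stays within 0.03 of 0 and the input part climbs to 0.313.

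Calls were spread over the chromosomes with some unevenness. On chromosome X 18 of 554 genes were lower (3.25%) and 4 higher, and on chromosome 1 29 of 944 were lower (3.07%) and 3 higher. On chromosome 14, 12 of 604 were higher (1.99%) and 2 lower, among them Lgi3 and Nefl. Genes on chromosome 12 had a median IP part of 0.155 and a median input part of 0.172, both channels being brighter in Eed-KO, while their median difference was 0.003.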

How the data were processed

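Rybp and input DNA were hybridised together, and the 4 arrays of WT and Eed-KO ES cells were used. Per the file headers, the deposited spot intensities are background-subtracted and dye-normalised signals of Agilent Feature Extraction (version 9.5.3.1, also in the submitters' processing notes). The value table that the authors deposited holds log10 ratios, Cy5 over Cy3, with direction and scale borne out by the scanner files: each column differed from them by 1 constant, within 0.001 for at least 99.9% of probes. Its column medians were -0.0250 and -0.0270 (WT) and -0.0317 and -0.0316 (Eed-KO), and how it was centred is not stated.

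Here log2(red over green processed signal) of non-control probes was centred on the array median. Probes flagged as outliers on either array of a design (79 and 177) were left out. Probes 45 to 60 bases long were assigned to genes by the annotation of the Dnmt1-KO files, and the sources used here name no genome build for it. Symbols were updated by accession with a RefSeq GRCm38.p6 table, which matched 16887 of 17534 accessions. Each design had 1 array per genotype, so no test was run and precision is limited by the number of arrays. The members and the 19 gene lists were chosen with earlier results of these data known. The text names the 10 highest and 10 lowest genes with at least 10 probes and 75% of them in that direction, the extremes of each list, the members past 0.25 and Rybp, Eed and Gnas, except that some genes chosen by this rule are not reported here. Other genes (in the Hox, trophoblast, Polycomb and pluripotency lists and the ribosomal bodies) were picked as examples after their values were seen. Python 3.11.15 with numpy 2.4.6, pandas 2.3.3 and statsmodels 0.14.6 was used, and R 4.3.3 with limma 3.58.1 for normexp with an offset of 50. Alternatives were normexp, the authors' table, centring on the mode, scaling to 1 median absolute deviation, a lowess trend on GC content (span 0.3, 3 robust passes), probe filters, other gene summaries, the older annotation, each array design alone and stricter calls. Scaling together with the GC trend and leaving out input-shifted surroundings were chosen after seeing the data. The gene summary was run on simulated data, made of the WT values with independent noise and a fixed shift at some genes. That simulation held no difference between genotypes by GC content or by region, so it cannot show how the summary handles those.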

Additional observations from a re-analysis of the deposited data

How the results depend on the processing

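No paired analysis was possible because each array design holds 1 array per genotype and no test was run. Against 124 genes higher and 239 lower, the counts were 73 and 31 with normexp, whose offset of 50 is about the size of the median input signal above background (40.9 to 47.1). They were 364 and 1114 within 1 kb of the start, 1096 and 1237 in the best-bound run of 6 probes, 42 and 129 on array 1 alone, 82 and 110 on array 2 alone, and 2 and 6 at a difference of 0.5. Scaling left 78 higher, and scaling with the GC trend removed 79. With at least 15 probes 149 were lower. Of the 124 and 239 genes, 32 and 24 were called again with normexp and 71 and 207 with scaling.

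The median of developmental transcription factors was 0.203 in the run of 6 probes, 0.023 with scaling and 0.017 with scaling and the GC trend removed. That of Hox genes turned to 0.069 in the run of 6 probes. The cause of these changes was not tested. All other planned medians of the 8 leading lists kept their sign and moved by less than the SD over the genes of the list, a wide yardstick in the absence of replicates. Of the 36 genes past 0.25 among the extremes named by rule, none changed sign under the alternatives that gave it a value (31 of the 36 had one within 1 kb of the start), and 22 fell below 0.25 with normexp, more than under any other alternative. No array can be left out in turn, and with 1 array per genotype and design no spread between cultures can be given.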
